A study of Homo sapiens with 4 samples.

Results

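The NK effector transcription factors are 10 genes, TBX21, EOMES, GATA3, IKZF1, IKZF2, IKZF3, PRDM1, ZNF683, NFIL3 and RUNX3, out of 61860 genes with a count. They were taken by name from the symbols of the FPKM table and the matching Ensembl identifiers of the count table. The set was chosen with earlier results of these data known. All 10 were found in both tables and all 10 passed the filter on low counts that left 17492 genes for testing. The cells were NK-92, a natural killer (NK) line of human origin that needs interleukin 2 (IL-2) to grow, kept in alpha-MEM with fetal bovine and horse serum and recombinant human IL-2. Wild-type cells (WT) were compared with ΔOGT-ISS cells, in which CRISPR-Cas9 deleted the intronic splicing silencer of OGT, the gene of the enzyme that attaches O-GlcNAc to proteins. Each line gave 1 library with IL-2 added 48 h before extraction and 1 with IL-2 added 24 h before it, so 4 libraries cover 4 combinations and none is repeated. Only 1 edited line was sequenced, so a difference between the lines cannot be assigned to the deletion alone. The labels do not say that the 4 libraries are separate cultures, and their titles name IL-2 only for the 24 h libraries although the treatment label gives it to all 4.

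NK cells are built and armed by a small set of DNA-binding proteins. NFIL3 acts early, in commitment to the NK and innate lymphoid lineages, and the T-box factors T-bet (TBX21) and Eomes (EOMES) then drive maturation, interferon gamma and the cytotoxic granule genes. GATA3 serves T cells and innate lymphocytes, the zinc finger proteins Ikaros, Helios and Aiolos (IKZF1, IKZF2, IKZF3) adjust lymphoid genes through chromatin complexes, and RUNX3 works with its partner CBFB. Blimp-1 (PRDM1) and its relative Hobit (ZNF683) repress genes of recirculation and mark tissue-resident and effector lymphocytes.

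The upstream stretches of 3 members are shown because ZNF683 held the largest difference between the lines at 1 time and because GATA3 and IKZF1 were the members past the test between the lines. They come from RefSeq (GRCh38.p14), read 5′ to 3′ on the strand of the gene, and capitals mark matches to searched motifs. ZNF683 is chr1:26372795-26373044 on the minus strand, GATA3 is chr10:8045083-8045332 on the plus strand and IKZF1 is chr7:50304466-50304668 on the plus strand. The ZNF683 stretch lies inside the longer GENCODE gene, whose 5′ end is 1728 bases from the RefSeq start. The IKZF1 stretch is 203 bases long because bases within a GENCODE exon were left out. It too lies inside the GENCODE gene, and the RefSeq start used is 648 bases from the GENCODE 5′ end.
ZNF683: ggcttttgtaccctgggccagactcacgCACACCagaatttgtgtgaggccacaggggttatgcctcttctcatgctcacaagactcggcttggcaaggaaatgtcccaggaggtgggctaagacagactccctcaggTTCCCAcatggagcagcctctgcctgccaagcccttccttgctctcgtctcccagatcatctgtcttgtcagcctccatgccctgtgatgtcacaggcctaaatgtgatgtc
GATA3: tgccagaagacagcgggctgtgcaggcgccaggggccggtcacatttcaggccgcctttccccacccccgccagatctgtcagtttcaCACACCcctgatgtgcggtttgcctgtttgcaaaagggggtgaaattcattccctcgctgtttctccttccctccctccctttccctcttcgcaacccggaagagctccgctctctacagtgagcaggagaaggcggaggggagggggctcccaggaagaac
IKZF1: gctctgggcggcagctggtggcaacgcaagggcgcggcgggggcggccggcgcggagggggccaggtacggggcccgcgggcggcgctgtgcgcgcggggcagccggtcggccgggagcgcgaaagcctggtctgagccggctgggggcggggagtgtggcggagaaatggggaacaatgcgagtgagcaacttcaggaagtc

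The letters searched on both strands were GGTGTG for T-box factors, AGATAA for GATA factors, TGTGGT for Runt factors, TGGGAA for Ikaros factors and TTCNNNGAA for STAT5, the factor activated by IL-2. Over 34943 RefSeq windows of 250 bases, 14.2% held the T-box letters, 9.19% the GATA letters, 11.0% the Runt letters, 20.9% the Ikaros letters and 6.56% the STAT5 letters. In ZNF683 the T-box letters lay 222 to 217 bases and the Ikaros letters 112 to 107 bases before the start. GATA3 held the T-box letters 162 to 157 bases before its start, and the IKZF1 stretch held none of the 5. Of the 9 members with a RefSeq entry, 8 had bases outside exons, and the T-box letters were in 3 of them (TBX21, GATA3, ZNF683), the Runt letters in 2 (IKZF2, RUNX3) and the Ikaros letters in 2 (ZNF683, RUNX3). The 250-base windows were not trimmed at exons, whereas the stretches of the members were and ran from 139 bases (RUNX3) to 250 bases. A match is a run of letters, not a shown binding site. IKZF3 has no entry in the table used.

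Depth was unequal between the times. Total counts were 10889986 (WT) and 11305599 (ΔOGT-ISS) at 48 h and 24809269 (WT) and 28576566 (ΔOGT-ISS) at 24 h. Intervals given for a ratio of single libraries are exact 95% intervals that cover counting error only. OGT itself was counted at 446 (WT) and 399 (ΔOGT-ISS) CPM (counts scaled to a common library size) at 48 h and 449 and 384 CPM at 24 h, with a log2 difference of -0.20 (SE 0.16, edgeR adjusted p = 0.862); gene counts do not show the deletion of an intronic element. All 11 NK marker genes were tested, and their summed level was 2380 to 4230 CPM, although FCGR3A, the gene of CD16, had only 0.772 to 3.33 CPM. Of 9 T cell markers 3 were tested (CD3E, TRAC, CD6), with summed levels of 216 to 361 CPM that came mostly from CD3E. TRAC had 19.9 to 24.0 CPM and CD6 2.74 to 19.2 CPM. CD3D, CD4, CD5, CD8A and CD8B had at most 14 counts in any library. CD3G had 49 counts in ΔOGT-ISS at 24 h and at most 6 in any other library. Of 5 B cell markers 2 were tested, PAX5 (52.0 to 80.8 CPM) and CD79A, and MS4A1 had at most 3 counts. Of 6 myeloid markers 3 were tested (S100A8, S100A9, CSF1R), with a summed level of 819 (WT) and 604 (ΔOGT-ISS) CPM at 48 h and 307 and 43.5 CPM at 24 h, while CD14, LYZ and MPO had at most 8 counts.

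Per length, the 10 genes ranged from percentile 26.9 to percentile 96.1 of the tested coding genes in a library. In the deposited FPKM values, which divide by transcript length and so allow genes to be compared, the order in WT cells at 48 h was NFIL3 (78.9), EOMES (76.8), IKZF3 (68.2), TBX21 (51.5), IKZF2 (45.7), PRDM1 (38.5), IKZF1 (19.1), GATA3 (16.2), RUNX3 (14.6) and ZNF683 (1.98). The counting intervals of NFIL3 and EOMES overlapped, as did those of GATA3 and RUNX3, and with 1 library per condition there is no other spread to set them against. At 24 h the WT order was EOMES (114.7), IKZF3 (108.7), TBX21 (87.5), ZNF683 (84.3), IKZF2 (42.0), RUNX3 (30.2), IKZF1 (23.7), NFIL3 (21.4), PRDM1 (18.3) and GATA3 (11.8), and only TBX21 and ZNF683 overlapped as neighbours. ZNF683 thus went from last of 10 to rank 4 and NFIL3 from rank 1 to rank 8. In ΔOGT-ISS cells NFIL3 headed the list at 48 h (88.9 FPKM) and IKZF3 at 24 h (121.4 FPKM), and ZNF683 was last at 48 h (1.74 FPKM) and rank 9 at 24 h (4.54 FPKM). The summed FPKM of the 10 genes was 411.5 (WT) and 403.2 (ΔOGT-ISS) at 48 h and 542.7 and 488.0 at 24 h.

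**Figure D1:**
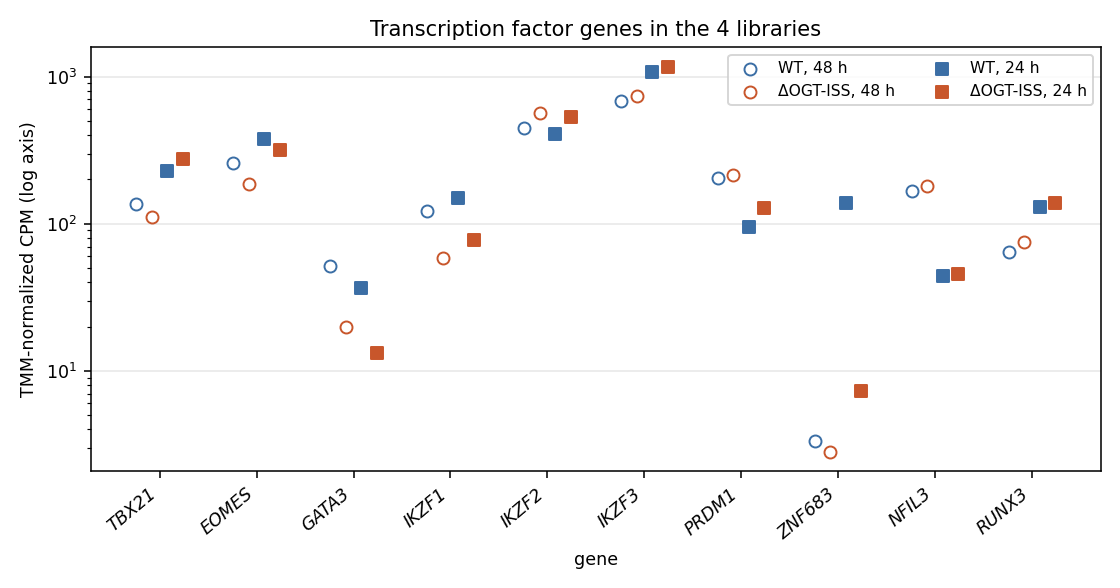
Level of each of the 10 genes in each library, as TMM-normalized CPM on a log axis (circles 48 h, squares 24 h, blue WT, orange ΔOGT-ISS). The GATA3 and IKZF1 points of ΔOGT-ISS lie below both WT points, and the WT 24 h point of ZNF683 (138.3 CPM) stands far above its other 3 (2.81 to 7.28 CPM). CPM is not divided by gene length, so heights are compared within a gene only.

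Between the lines, 2 members fell in ΔOGT-ISS cells, GATA3 and IKZF1, and 0 rose. Of the 17492 genes tested, 0.463% passed edgeR's quasi-likelihood test (adjusted p under 0.05), 0.314% lower and 0.149% higher in ΔOGT-ISS. The median log2 difference of the members was 0.04, beside 0.02 over all tested genes, and 5 of the 10 were above 0. ZNF683 had the largest single ratio, at 24 h alone, and did not pass. The model fitted line and IL-2 time together and kept 1 residual degree of freedom. With no combination repeated, its error is how far the line difference changed between the times, moderated by a prior over all genes. The p-values therefore measure no spread between repeated libraries, and that change could be technical. A line difference at 1 time only, as in ZNF683, counts as error in this model. In bulk RNA, fewer cells that express a gene and less RNA per cell cannot be told apart.

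**Figure D2:**
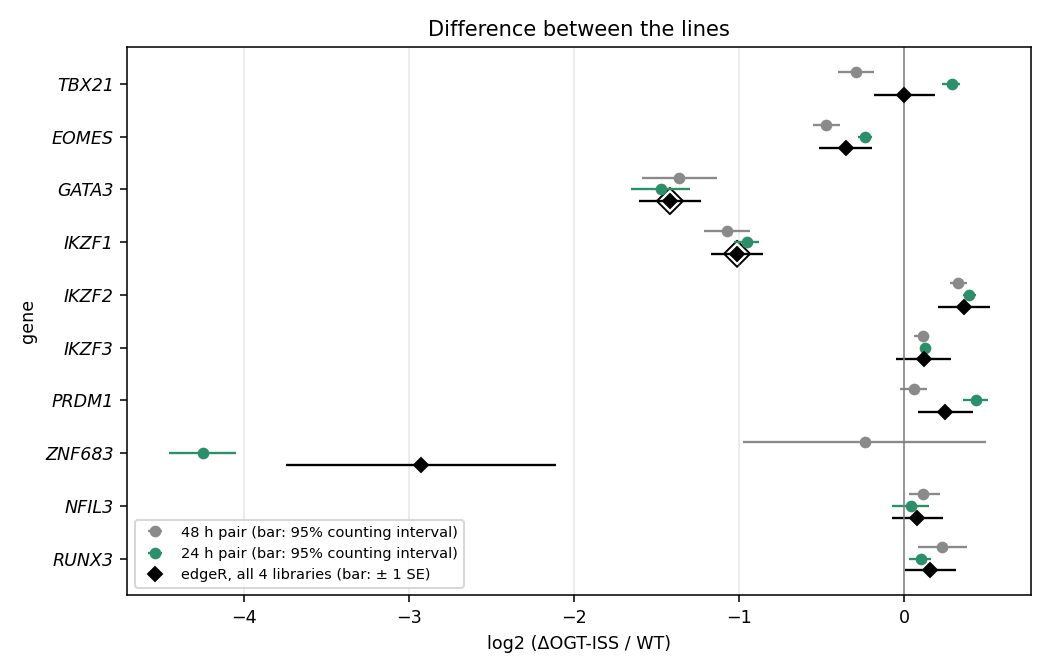
Log2 ratio of ΔOGT-ISS to WT for each gene, with the 48 h pair in grey and the 24 h pair in green (bars, 95% counting intervals) and the edgeR estimate over all 4 libraries as black diamonds (bars, 1 SE). A wide outline marks the 2 genes past the test, GATA3 and IKZF1, and ZNF683 lies near -4.25 at 24 h but near 0 at 48 h.

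The T-box pair did not pass between the lines. TBX21 (ENSG00000073861, chromosome 17, 47733244 to 47746119, GRCh38) was counted at 137 CPM in WT and 112 CPM in ΔOGT-ISS at 48 h, and at 228 CPM and 277 CPM at 24 h. The ΔOGT-ISS library was thus the lower one at 48 h (ratio 0.816, counting interval 0.756 to 0.881) and the higher one at 24 h (ratio 1.22, 1.17 to 1.26), and this change of side was not tested because each ratio rests on 1 library per line. EOMES (ENSG00000163508, chromosome 3, 27715949 to 27722711) stood at 258 CPM in WT and 186 CPM in ΔOGT-ISS at 48 h, and at 377 CPM and 319 CPM at 24 h. ΔOGT-ISS was lower in each pair (ratios 0.720 and 0.847), with a log2 difference of -0.36 (SE 0.16, edgeR adjusted p = 0.580). By FPKM, TBX21 made up 40.1% (WT) and 43.2% (ΔOGT-ISS) of the pair at 48 h and 43.3% and 52.3% at 24 h, so ΔOGT-ISS at 24 h was the library in which TBX21 stood above EOMES.

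GATA3 fell 2.68-fold in ΔOGT-ISS. GATA3 (ENSG00000107485, chromosome 10, 8045378 to 8075203) had 543 (WT) and 228 (ΔOGT-ISS) counts at 48 h, then 902 and 382 at 24 h. These were 51.4 and 20.0 CPM at 48 h and 36.6 and 13.2 CPM at 24 h, so both ΔOGT-ISS libraries lay below both WT libraries. The ratio of ΔOGT-ISS to WT was 0.389 (0.332 to 0.455) in the 48 h pair and 0.360 (0.318 to 0.406) in the 24 h pair. The log2 difference was -1.42 (SE 0.19, edgeR adjusted p = 0.0295). The antisense gene GATA3-AS1, which overlaps it, had 0 to 11 counts in any library.

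Type 2 genes, which GATA3 drives in T helper and innate lymphoid cells, were mostly silent in these cells. Of 10 listed, 3 were tested, 0 of them passed between the lines, and IL9 was at 0 in all 4 libraries. IL5 and HPGDS had at most 1 count. The largest fitted log2 differences were PTGDR2 (1.05, SE 0.99, edgeR adjusted p = 0.890) and IL1RL1 (-0.74, SE 1.14, edgeR adjusted p = 0.945), each on 2 to 35 counts per library.

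Of the Ikaros family IKZF1 alone passed, and its share of the family's transcripts was lower in ΔOGT-ISS at each time. IKZF1 (ENSG00000185811, chromosome 7, 50304068 to 50405101) had 1299 (WT) and 666 (ΔOGT-ISS) counts at 48 h, then 3669 and 2230 at 24 h. In CPM these were 123 and 58.4 at 48 h and 149 and 76.9 at 24 h, again with both ΔOGT-ISS libraries below both WT libraries. The ratios were 0.475 (0.432 to 0.522) and 0.516 (0.489 to 0.544), and the log2 difference was -1.01 (SE 0.16, edgeR adjusted p = 0.0481), a 2.02-fold fall. An antisense gene inside IKZF1 had 3 to 19 counts.

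IKZF2 (ENSG00000030419, chromosome 2, 212999691 to 213152427) went the other way in every pair without passing, at 450 CPM in WT and 564 CPM in ΔOGT-ISS at 48 h and 405 CPM and 532 CPM at 24 h. Both ΔOGT-ISS libraries were above both WT libraries (ratios 1.25 and 1.31, log2 difference 0.36, SE 0.16, edgeR adjusted p = 0.565). IKZF3 (ENSG00000161405, chromosome 17, 39757715 to 39864188) was the family's most abundant member per length in all 4 libraries, at 688 CPM in WT and 739 CPM in ΔOGT-ISS at 48 h and 1072 CPM and 1170 CPM at 24 h. Its log2 difference between the lines was 0.12 (SE 0.16, edgeR adjusted p = 0.941). IKZF1 made up 14.3% of the summed FPKM of the 3 genes in WT at 48 h but 6.49% in ΔOGT-ISS, and the 24 h libraries gave 13.6% and 6.56%. The more distant relatives IKZF4 (ratios 0.849 and 0.863) and IKZF5 (0.825 and 0.977) did not pass.

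GATA3 and IKZF1 lay among genes whose ratios were also below 1. Among the 20 nearest tested coding genes on each side of GATA3, the log2 ratios had medians of -0.36 (48 h) and -0.21 (24 h), against -1.36 and -1.47 for GATA3 itself, and 33 and 32 of the 40 were below 0. Of these 40 neighbours, 1 was lower than GATA3 at 48 h and 4 were at 24 h. Around IKZF1 the medians were -0.51 and -0.44 against -1.07 and -0.95 for IKZF1, with 27 and 35 of 40 below 0 and 5 lower than IKZF1 at each time. Around the other 8 members the medians ran from -0.13 to 0.26. No neighbour of any member passed the edgeR test between the lines. After the median of the neighbours was subtracted at each time, the log2 difference was -1.14 for GATA3 (edgeR adjusted p = 0.0690) and -0.54 for IKZF1 (edgeR adjusted p = 0.332), so neither passed. Limma on log2(FPKM + 1), which called 0 genes between the lines, gave adjusted p = 0.245 and 0.266 with log2 differences of -1.22 and -0.91. Fits without 1 of the 4 libraries also lack the time term and leave 1 library in a group, so their calls cannot decide about either gene. Their log2 differences were -1.74 to -1.18 for GATA3 and -1.27 to -0.83 for IKZF1.

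**Figure D3:**
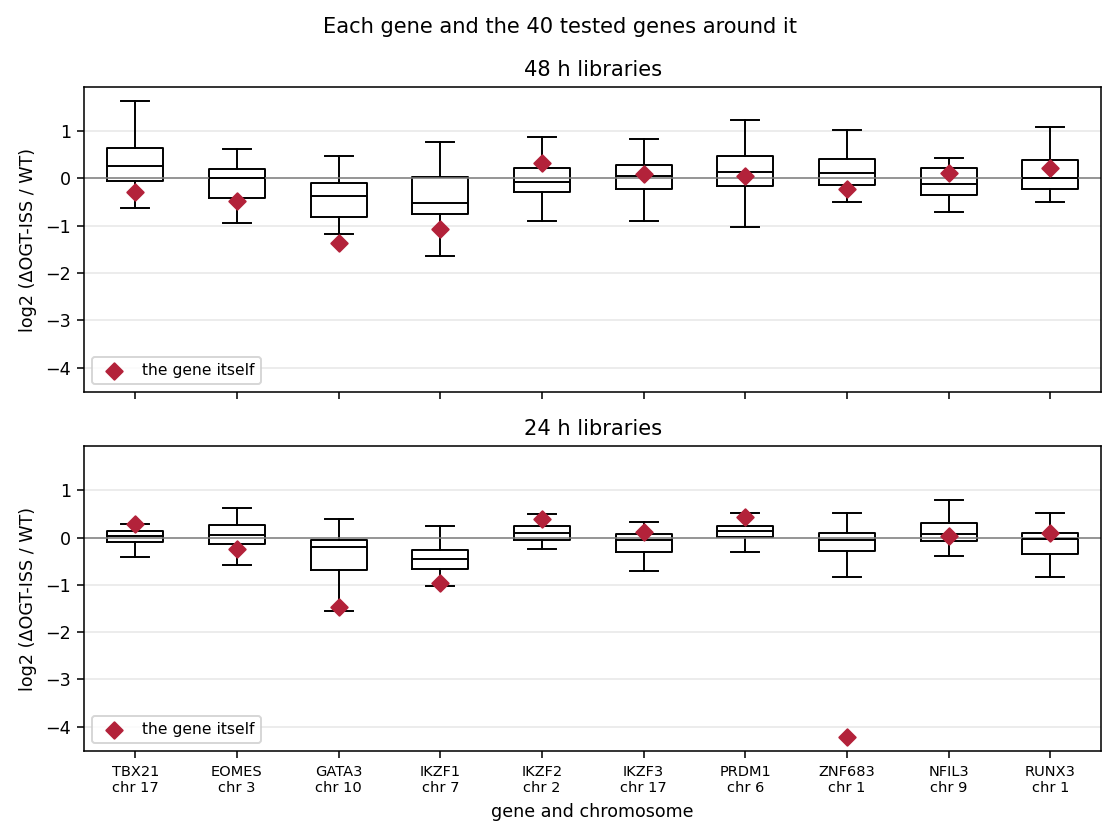
Log2 ratio of ΔOGT-ISS to WT for each gene (red diamond) and for the 40 tested coding genes around it on its chromosome (box, quartiles with the median; whiskers reach the farthest gene within 1.5 box lengths), at 48 h (top) and 24 h (bottom). Values carry a prior count of 2. The boxes of GATA3 and IKZF1 sit mostly below 0 with the gene lower still, and ZNF683 at 24 h (-4.23) lies below all 40 of its neighbours.

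ZNF683 separated 1 library from the other 3. ZNF683 (ENSG00000176083, chromosome 1, 26361634 to 26374522), the gene of Hobit, had 35 (WT) and 32 (ΔOGT-ISS) counts at 48 h, then 3404 and 211 at 24 h. In CPM these were 3.31 and 2.81 at 48 h and 138 and 7.28 at 24 h. At 24 h ΔOGT-ISS was 19.0-fold lower than WT (16.5 to 21.9), and at 48 h the ratio was 0.847 (0.508 to 1.41). The 24 h ratio was lower by 4.01 log2 units than the 48 h ratio (24 h minus 48 h, -4.01), which was not tested because no combination of line and time is repeated. Over all 4 libraries the log2 difference was -2.93 (SE 0.82, edgeR adjusted p = 0.237, DESeq2 -2.27 with adjusted p = 0.905). Without WT replicate 2, the 24 h library, the fitted value was 0.65. In the same 24 h pair 7 of the 11 NK markers had ratios under 1, from GNLY (0.166, 0.157 to 0.176) and GZMB (0.291, 0.284 to 0.298) to KLRD1 (0.963), and NCAM1 (1.05), KLRC1 (1.05), CD7 (1.12) and FCGR3A (1.34) had ratios above 1. The myeloid marker S100A9 had a ratio of 0.134 (0.126 to 0.143). In the 48 h pair the ratios were 0.756 for GNLY, 0.997 for GZMB, 0.983 for KLRD1 and 0.749 for S100A9. The part of these genes in the ZNF683 value was not tested.

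PRDM1 (ENSG00000057657, chromosome 6, 106086320 to 106109939), the gene of Blimp-1, did not pass between the lines. It was counted at 204 CPM in WT and 213 CPM in ΔOGT-ISS at 48 h, and at 95.02 CPM and 128 CPM at 24 h. The 48 h pair had a ratio of 1.04 (0.983 to 1.10) and the 24 h pair one of 1.35 (1.28 to 1.42), and the log2 difference was 0.25 (SE 0.17, edgeR adjusted p = 0.805). Of the summed FPKM of PRDM1 and ZNF683, ZNF683 made up 82.1% in WT at 24 h, against 15.2% in ΔOGT-ISS at that time and, at 48 h, 4.88% (WT) and 4.0% (ΔOGT-ISS). ATG5, a coding gene on the opposite strand, overlaps PRDM1 and had 1345 to 1684 counts, and the strand setting of the counting is not given in the sources used here.

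Genes of tissue residency and recirculation, the programme tied to Hobit and Blimp-1, moved in both directions between the lines. Of 13 listed, 12 were tested, 1 rose (S1PR1) and 1 fell (ITGA1), with a median of -0.01. Over all tested genes 0.149% rose and 0.314% fell. ITGA1, which encodes the collagen-binding integrin CD49a of resident lymphocytes, had 112 CPM in WT and 42.0 CPM in ΔOGT-ISS at 48 h, and 239 CPM and 41.8 CPM at 24 h. The edgeR estimate was log2 -1.98 (SE 0.26, edgeR adjusted p = 0.0295), and -1.91 with adjusted p = 0.0583 once the neighbour median was removed. S1PR1, the receptor that guides lymphocytes out of tissue, had 9.18 CPM in WT and 39.8 CPM in ΔOGT-ISS at 48 h, and 23.2 CPM and 59.5 CPM at 24 h. The edgeR estimate was log2 1.71 (SE 0.23, edgeR adjusted p = 0.0333). For ITGA1 and S1PR1, which had passed the test on the same values, the 2 libraries of one line did not overlap with those of the other. Limma on log2(FPKM + 1) gave -1.70 (adjusted p = 0.274) for ITGA1 and 1.58 (adjusted p = 0.232) for S1PR1.

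**Figure D4:**
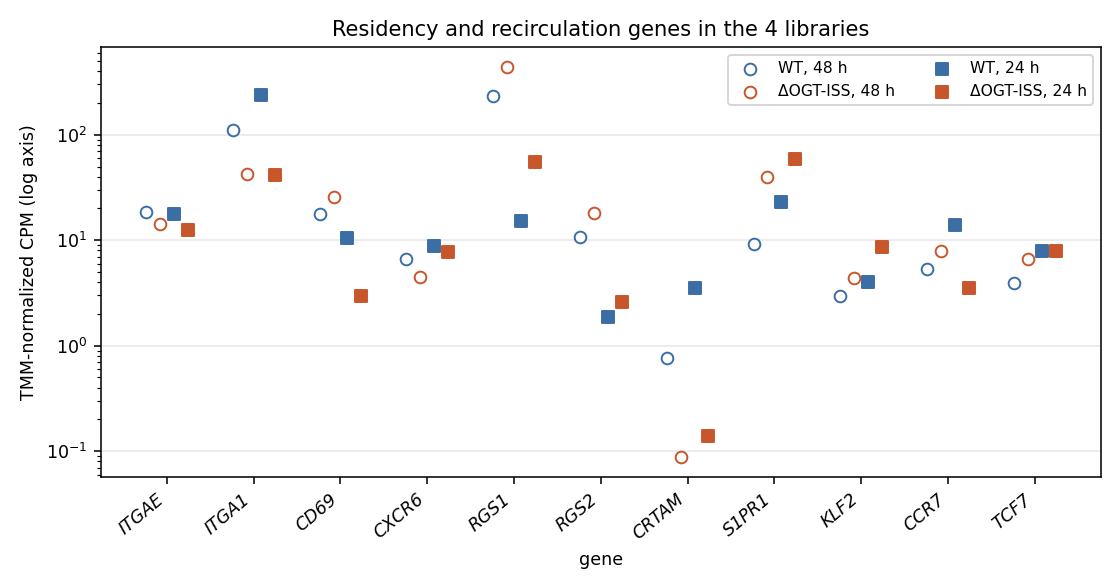
Level of 11 tested residency and recirculation genes in each library, as TMM-normalized CPM on a log axis (circles 48 h, squares 24 h, blue WT, orange ΔOGT-ISS). ITGA1 is lower and S1PR1 higher in both ΔOGT-ISS libraries than in both WT libraries.

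NFIL3 and RUNX3 did not pass between the lines. NFIL3 (ENSG00000165030, chromosome 9, 91409045 to 91423862) stood at 167 CPM in WT and 181 CPM in ΔOGT-ISS at 48 h and at 44.4 CPM and 45.6 CPM at 24 h, with a log2 difference of 0.08 (SE 0.15, edgeR adjusted p = 0.960). RUNX3 (ENSG00000020633, chromosome 1, 24899511 to 24965121) stood at 64.3 CPM and 75.2 CPM at 48 h and at 130 CPM and 138 CPM at 24 h, with a log2 difference of 0.16 (SE 0.16, edgeR adjusted p = 0.901). RUNX3-AS1, on the opposite strand within it, had 50 to 276 counts. The Runt relative RUNX2 fell instead, from 105 CPM in WT to 49.3 CPM in ΔOGT-ISS at 48 h and from 62.7 CPM to 15.8 CPM at 24 h (log2 -1.54, SE 0.23, edgeR adjusted p = 0.0470). RUNX1 (ratios 0.703 and 1.12) and the shared partner CBFB (0.914 and 1.10) did not pass. Of the 10 family relatives 7 were tested, and RUNX2 was the only one past the test between the lines, which 0.463% of all tested genes passed. The median log2 difference of the relatives was -0.15.

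Among further NK transcription factors and T-box targets, IRF4 alone passed between the lines, where 0.463% of all tested genes did. Whether these shares differ was not tested. Of 29 further NK transcription factors, 25 were tested and 1 passed, IRF4, at 41.7 CPM in WT and 91.4 CPM in ΔOGT-ISS at 48 h and 70.0 CPM and 165 CPM at 24 h (log2 1.18, SE 0.16, edgeR adjusted p = 0.0313). Limma on log2(FPKM + 1), which called 0 genes between the lines, gave IRF4 the same direction (adjusted p = 0.227; 1.22 with a pseudocount of 0.1) and RUNX2 -1.30 (adjusted p = 0.285). Of 17 genes that T-bet and Eomes are known to drive, 15 were tested and 0 passed, with a median of -0.13. The largest by size were IL12RB2 (log2 1.06, SE 0.20, edgeR adjusted p = 0.0790) and CX3CR1 (log2 0.95, SE 0.76, edgeR adjusted p = 0.860), the latter on 9 to 29 counts per library. The median over all tested genes was 0.02. Of the 15 targets 6 were above 0, and GZMB (-0.89, edgeR adjusted p = 0.529) and CCL4 (-0.78, edgeR adjusted p = 0.165) were among those below. The ratio of ΔOGT-ISS to WT for GZMB was 0.997 at 48 h and 0.291 at 24 h. For CCL4 it was 0.481 and 0.708. Of the 11 NK markers 0 passed.

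Between the IL-2 times, 5 members rose at 24 h (ZNF683, TBX21, RUNX3, EOMES, IKZF3) and 2 fell (NFIL3, PRDM1). Over all tested genes 25.9% passed the edgeR test, 15.0% higher and 10.9% lower at 24 h, and the median log2 difference was 0.50 for the members and 0.07 for all tested genes. The time is carried by 1 library per line and moves with depth and with library composition, so the IL-2 time and the library cannot be told apart. RN7SL1, an RNA of the signal recognition particle, took 0.394% to 0.425% of counts at 48 h and 2.76% to 4.39% at 24 h. Genes also differed by the GC content of their transcripts, with a median log2 time difference of -0.40 over the 2712 tested genes under 40% GC, -0.01 from 45 to 50%, 0.32 from 50 to 55% and 0.71 from 55 to 60%. TBX21 and ZNF683 have 59.7% GC, RUNX3 57.2%, GATA3 53.7%, EOMES 52.1%, IKZF1 48.3%, NFIL3 46.5%, IKZF3 45.8%, PRDM1 45.7% and IKZF2 35.4%.

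**Figure D5:**
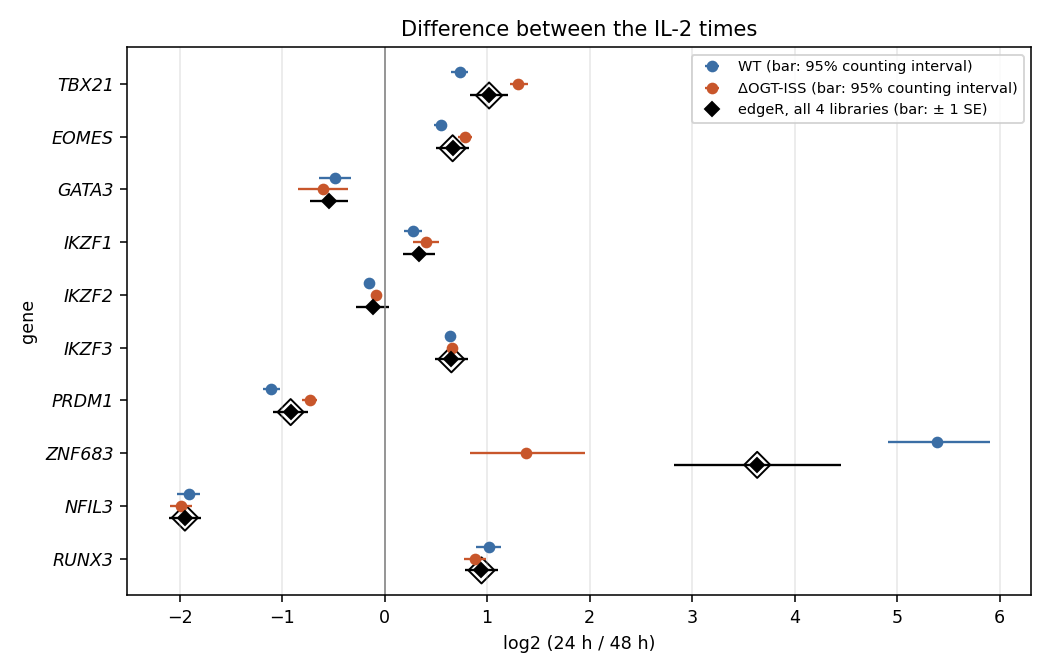
Log2 ratio of 24 h to 48 h for each gene in WT (blue) and ΔOGT-ISS (orange), with 95% counting intervals, and the edgeR estimate over all 4 libraries (black diamonds, bars 1 SE). A second outline marks the 7 genes past the test. ZNF683 shows the widest gap between the lines, 5.38 in WT and 1.38 in ΔOGT-ISS.

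NFIL3, the early lineage factor, fell the most. Its ratio of 24 h to 48 h was 0.266 (0.246 to 0.287) in WT and 0.252 (0.235 to 0.271) in ΔOGT-ISS, a log2 difference of -1.95 (SE 0.16, edgeR adjusted p = 0.000475). With offsets for GC content and length it was -1.75 (edgeR adjusted p = 0.00108). PRDM1 fell to 0.465 of its 48 h level in WT and 0.603 in ΔOGT-ISS (log2 -0.92, SE 0.17, edgeR adjusted p = 0.00696).

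ZNF683 rose 41.8-fold (30.0 to 60.0) in WT and 2.60-fold (1.78 to 3.89) in ΔOGT-ISS, and both 24 h libraries lay above both 48 h libraries. The log2 difference over the lines was 3.64 (SE 0.81, edgeR adjusted p = 0.0150), and it did not pass with DESeq2 (3.35, adjusted p = 0.0857). Without WT replicate 2, the 24 h library, it was 1.32 (edgeR adjusted p = 0.230). The T-box genes rose in each line, TBX21 by 1.66-fold in WT and 2.47-fold in ΔOGT-ISS (log2 1.02, SE 0.19, edgeR adjusted p = 0.00695) and EOMES by 1.46-fold and 1.72-fold (log2 0.66, SE 0.16, edgeR adjusted p = 0.0202). RUNX3 rose 2.02-fold and 1.84-fold (log2 0.95, SE 0.16, edgeR adjusted p = 0.00473). IKZF3 rose 1.56-fold and 1.58-fold (log2 0.65, SE 0.16, edgeR adjusted p = 0.0234). In all 5 genes the 24 h libraries did not overlap with the 48 h libraries. These genes had already passed the test on the same values, and the share of all tested genes without overlap was not counted.

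With offsets for GC content and length, TBX21 (0.29, edgeR adjusted p = 0.363), RUNX3 (0.44, 0.0809) and EOMES (0.51, 0.0657) no longer passed, and GATA3 did (-0.81, 0.0242). NFIL3, PRDM1, ZNF683 and IKZF3 passed with the offsets too, ZNF683 at 2.98 (edgeR adjusted p = 0.0461). Without the offsets GATA3 had a log2 time difference of -0.54 (SE 0.19, edgeR adjusted p = 0.0654), IKZF1 of 0.34 (SE 0.16, edgeR adjusted p = 0.151) and IKZF2 of -0.12 (SE 0.16, edgeR adjusted p = 0.628). The ratio of 24 h to 48 h was 0.713 in WT and 0.659 in ΔOGT-ISS for GATA3. It was 1.21 and 1.32 for IKZF1, and 0.900 and 0.944 for IKZF2. GATA3 also passed with DESeq2's size factors (-0.58, edgeR adjusted p = 0.0494). With the 24 h libraries thinned, its edgeR adjusted p was 0.0191 to 0.0569 over 5 draws. Leaving out 1 library, in fits without the line term, ended the call of IKZF3 whichever was left out, although its log2 difference was 0.67 to 0.78 (edgeR adjusted p = 0.0552 to 0.134). PRDM1, at -1.06 to -0.63, lost its call in the same way (edgeR adjusted p = 0.0503 to 0.208), and EOMES, at 0.43 to 0.99, in 3 of the 4 fits (0.116 to 0.270). Without ΔOGT-ISS replicate 2, its 24 h library, TBX21 (0.95, edgeR adjusted p = 0.0674) and RUNX3 (0.97, edgeR adjusted p = 0.0634) did not pass, nor did RUNX3 without WT replicate 2 (1.06, edgeR adjusted p = 0.0502).

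The lists around the members held calls in both directions between the times, and their counts are to be read against the 15.0% of all tested genes that rose and the 10.9% that fell. Of the 15 T-box targets 3 rose and 2 fell at 24 h, among them the chemokine receptor CXCR3 (log2 1.87), FASLG (1.12), IFNG (-1.73) and CCL4 (-1.57). IFNG, the gene of interferon gamma, thus fell at the time at which TBX21 and EOMES rose. With the GC and length offsets IFNG still passed (-1.12, edgeR adjusted p = 0.0203), while TBX21 and EOMES did not. Of the 12 residency and recirculation genes 1 rose, S1PR1 (0.93), and 3 fell, RGS1 (-3.46), RGS2 (-2.66) and CD69 (-1.90). Of the 25 further transcription factors 7 rose and 3 fell, among them GFI1 (1.43), ID3 (1.29), FOXO1 (-1.66) and RORA (-0.81); FOXO1, ID3, RORA and CD69 did not pass with the GC and length offsets, and neither did the T cell marker CD6 (1.18, edgeR adjusted p = 0.0891). Among the type 2 genes IL10 fell (-1.30). Of the family relatives RUNX2 fell (-1.18), and 0 rose. Of the 11 NK markers 4 rose (CD7 4.07, NCR3 1.07, NCR1 0.90, NCAM1 0.82) and 0 fell, and the T cell markers CD6 (2.06) and CD3E (0.62) rose. The myeloid markers S100A8 (-2.66, SE 0.61, edgeR adjusted p = 0.0170) and S100A9 (-2.66, SE 0.52, edgeR adjusted p = 0.00920) fell. The B cell marker CD79A passed the edgeR test (adjusted p = 0.0361, 0.0767 with the offsets) on 0 counts in both 48 h libraries and 44 (WT) and 18 (ΔOGT-ISS) counts at 24 h. The part of these markers in the values of the members was not tested. Of the 23 list genes named as past the time test, CD7, CXCR3, GFI1, IFNG, RGS1 and RGS2 were called without each library in turn, in fits without the line term, and the other 17 were not. Leaving out ΔOGT-ISS replicate 2 put the time value of S1PR1 at 0.004, leaving out WT replicate 1 put it at 0.145, and leaving out ΔOGT-ISS replicate 1 put it at 2.17, none past the test. For RUNX2 the value was -0.24 when WT replicate 1 was left out, -0.22 when ΔOGT-ISS replicate 2 was left out and -2.22 when WT replicate 2 was, the last past the edgeR test (adjusted p = 0.0293). Without ΔOGT-ISS replicate 2, S100A8 was at -0.94 and S100A9 at -1.16, and without WT replicate 2 they were at -4.82 and -4.06.

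The genes whose profile over the 4 libraries lay nearest to each member other than IKZF2 were taken from 9083 coding genes averaging 5 CPM or more. IKZF2 passed no test and had no line ratio past 2-fold, so no nearest genes were taken for it. Nearness is the Euclidean distance of log2 CPM centred on each gene's mean, over only 4 libraries. NOTCH1, a receptor of lymphoid development, was nearest to ZNF683 at a distance of 1.44, with 4.73 (WT) and 2.19 (ΔOGT-ISS) CPM at 48 h and 65.8 and 12.4 CPM at 24 h, before PTPRF (1.69) and DGKQ (1.70). GATA3 was nearest to SQOR (0.123), HCST (0.153), which encodes the NKG2D adaptor DAP10, and S100A11 (0.170). HCST had 60.6 (WT) and 22.5 (ΔOGT-ISS) CPM at 48 h and 43.3 and 13.7 CPM at 24 h. For IKZF1 the nearest were SCCPDH, CHRNA5 and VPS18 (0.0726 to 0.159). TBX21 had MREG, MED9 and BRF1 (0.0359 to 0.0985), EOMES had GLYCTK, SCAMP3 and ATXN7L2 (0.0286 to 0.0749) and IKZF3 had PHF13, UCK1 and MTA1 (0.0174 to 0.0483). Nearest to PRDM1 were FGFR1OP2, NARS1 and AASDHPPT (0.0359 to 0.0668), to NFIL3 DNAJB9, PNRC1 and PFDN4 (0.142 to 0.254) and to RUNX3 GTF2F1, PRKCSH and UBXN6 (0.0409 to 0.0555). For the members searched, none of the 3 nearest was itself a member, and the closest pair of members was IKZF3 and RUNX3 (0.307).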

How the data were processed

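The deposited table gives raw read counts for each Ensembl gene, and the deposited FPKM values equal the count per transcript length and per library total within 0.068%. Libraries were made from ribosome-depleted total RNA with RiboCop and CORALL V2, per the labels' protocols. HISAT2 2.2.0, SAMtools 1.15.1, featureCounts 2.0.1 and hg38 are named in the submitters' processing notes. Annotation, strand setting and handling of multi-mapping reads or molecular identifiers: not given in the sources used here.

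Line and IL-2 time were tested additively in all 4 libraries with edgeR 4.0.16 (R 4.3.3): TMM, filterByExpr with a minimum count of 10, glmQLFit and glmQLFTest, two-sided, Benjamini-Hochberg over 17492 genes, threshold 0.05. The SE is the log2 difference divided by the square root of F. CPM are TMM-normalized. Single-library ratios have exact conditional binomial intervals and no test. Positions come from GENCODE release 29, upstream bases from RefSeq. The pipeline was tested on simulated counts.

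The members and gene lists were chosen with earlier results of these data known. All members are named, and some genes of the lists are not reported here. From each list, the genes named are those past the test (up to 6 by line, up to 4 by time, by size) or, where none passed, the 2 largest; relatives of the members and marker genes named beyond that were chosen after their values were seen. For members past a test or past 2-fold at either time, the 3 nearest profiles are named. Alternatives were DESeq2 1.42.0, its size factors, library size only, no filter, limma 3.58.1 on log2(FPKM + 1) and log2(FPKM + 0.1), no second term, each library left out, the 24 h libraries thinned to 10889986 counts, offsets for GC content and length (fitted with mgcv), and removal of the median ratio of 20 coding genes on each side. Further thinning draws and the subtraction of the neighbour median from single ratios were added after seeing the data.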

Additional observations from a re-analysis of the deposited data

Results flagged for a closer look

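TBX21, the gene of T-bet, lay on opposite sides of 1 in the pairs of libraries. The ratio of ΔOGT-ISS to WT was 0.816 (95% counting interval 0.756 to 0.881) at 48 h and 1.22 (1.17 to 1.26) at 24 h. Each ratio rests on 1 library per line, so no test of the change of side was made. At 48 h the 40 genes around TBX21 had a median log2 ratio of 0.26, on the other side of 0 from TBX21 (-0.29), and at 24 h of 0.03 (TBX21, 0.28).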

How the results depend on the processing

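The number of genes past the test between the lines depended on the setting. Against 81 in the main analysis, it was 154 with DESeq2's size factors, 546 with no filter, 303 with DESeq2, 0 with limma at either pseudocount (1618 and 1543 at unadjusted p under 0.05), 0 without the IL-2 term (242 unadjusted), 51 with the regional median removed, and 0 to 16 without 1 library, in fits that also lack the other term and so mix line with time. Thinning the 24 h libraries gave 346, and draws added after seeing the data gave 519, 143, 213 and 124, with edgeR's prior degrees of freedom at 7.54 to 22.8 against 6.86, so the count moved with the draw. GATA3 and IKZF1 were past the threshold with DESeq2's size factors, library size only, no filter, DESeq2, the GC offsets and all 5 draws, and not with limma, without the IL-2 term, without any 1 library or with the regional median removed. ZNF683 passed between the lines with no filter and in 2 of the 5 draws. TBX21, near 0 between the lines, changed sign with library size only (0.044), limma (0.039 at each pseudocount), no IL-2 term (0.091), draw 3 (0.008) and GC offsets (0.008). Without 1 library, line values that changed sign ran from -0.765 to 0.597 for TBX21, -0.831 to 0.004 for EOMES, -0.309 to 0.505 for IKZF3, -0.247 to 0.787 for PRDM1, -4.783 to 0.654 for ZNF683, -1.213 to 1.277 for NFIL3 and -0.43 to 0.767 for RUNX3. The time count was 4535, and 2597 with GC and length offsets (1559 higher, 1038 lower) and 1098 to 3657 without 1 library. Time values that changed sign without 1 library ran from -1.37 to 0.405 for GATA3, -0.17 to 1.041 for IKZF1 and -0.246 to 0.141 for IKZF2, and IKZF2 was 0.099 with no filter and 0.486 with the offsets. Omitting the filter shifted the median gene by 0.217 log2 units between the times and gave 3714 higher and 1183 lower calls, against 2625 and 1910. NFIL3 passed between the times without any 1 library; TBX21 and RUNX3 did not without ΔOGT-ISS replicate 2 (the 24 h library), nor RUNX3 without WT replicate 2, and EOMES, IKZF3, PRDM1 and ZNF683 passed in 1, 0, 0 and 1 of those 4 fits. Of the other genes named as past a test, ITGA1, S1PR1, IRF4 and RUNX2 did not pass between the lines with limma, without the IL-2 term or without any 1 library, and 6 of 23 (CD7, CXCR3, GFI1, IFNG, RGS1, RGS2) passed between the times in every alternative run. The cause of these shifts was not tested. The labels give no replicate numbers, and the numbers used here only name a line's 48 h (replicate 1) and 24 h (replicate 2) library. The main model compares the lines within each IL-2 time, and the fit without that term is the unpaired one. With 1 library per line and time, the 35 and 32 counts of ZNF683 at 48 h limit its ratio there.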
